A study of Mus musculus with 12 samples.

Results

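The distal SOX2 regions described here are the binding regions of growing cells that lay in the stretches between genes, with a midpoint more than 50 kb and at most 200 kb from the span of the nearest protein-coding gene. They were 1397 of the 10351 distinct regions called in asynchronous cells (13.5%, exact 95% binomial interval 12.8 to 14.2%). SOX2 was mapped by chromatin immunoprecipitation and sequencing (ChIP-seq) with the antibody Sox2 Y-17 in E14, a mouse embryonic stem cell line. Both groups grew on gelatin in 10% serum with leukemia inhibitory factor and with CHIR99021 (3 μM), which inhibits GSK3, and PD184352 (0.8 μM), which inhibits MEK. Asynchronous cells had no further treatment in the labels, and mitotic cells were held overnight in the microtubule poison nocodazole, fixed and sorted for H3S10p, a histone mark of condensed chromosomes. Each condition had 3 ChIP and 3 input libraries, and each is represented by 1 list called on its pooled replicates: 10351 asynchronous and 84 mitotic regions, so no value below has a replicate error and the depth is unknown. Intervals cover counting error only.

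SOX2 is a high-mobility-group transcription factor that bends DNA and, in embryonic stem cells, often binds beside OCT4 at enhancers. Enhancers can act on a gene across long stretches of noncoding sequence by looping, and genes of developmental regulators are often surrounded by such stretches. A gene flanking a gap is therefore named here as a position and not as a target. A gap is the stretch between neighbouring protein-coding genes (RefSeq, GRCm38.p6, the assembly of mm10), and eligible sequence is the part of a gap that lies 50 to 200 kb from the nearest of them.

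Sequence could be read for the distal regions that lay on annotated promoters of noncoding genes, which are shown first because they give the bases under SOX2 regions far from any protein-coding gene. Of the 1397 distal regions, 37 (2.65%) overlapped a promoter window, from 250 bases before to 50 after an annotated start. Other asynchronous regions lay on 471 such windows, and the share of those regions is not given here. By the distance rule no promoter of a protein-coding gene could be hit by a distal region. All of the 38 genes under the distal regions were long noncoding RNAs (lncRNAs). Among them were Platr22 and Platr26, named as pluripotency-associated transcripts. Platr22 lies between Zfp281, a zinc finger gene, and Nr5a2, a nuclear receptor of the pluripotency network. Platr26 lies between Dlx2, a homeobox gene, and Itga6, an integrin subunit. The stretches shared by window and region are at chr1:136696152-136696260 (plus strand) and chr2:71719167-71719443 (plus strand), given on the gene's strand 5′ to 3′ from RefSeq (GRCm38.p6). Capitals mark the bases from the annotated start on.
Platr22: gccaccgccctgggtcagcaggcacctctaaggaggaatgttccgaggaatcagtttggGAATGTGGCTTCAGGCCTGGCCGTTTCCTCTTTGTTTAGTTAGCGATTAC
Platr26: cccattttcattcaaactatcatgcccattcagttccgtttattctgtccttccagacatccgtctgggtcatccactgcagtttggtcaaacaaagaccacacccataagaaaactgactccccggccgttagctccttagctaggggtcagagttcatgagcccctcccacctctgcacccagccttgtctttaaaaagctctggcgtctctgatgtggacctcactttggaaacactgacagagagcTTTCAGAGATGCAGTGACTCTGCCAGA

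Whole windows were searched on both strands for CATTGTT, the core of the SOX motif, and ATGCAAA, the core of the octamer bound by OCT4. These cores have no overlapping match in the sequences shown. A window counts as under a region if any of its bases are shared, only 6 in the case of Gm35891. A counted match can therefore lie outside the SOX2 region. CATTGTT was in 5 of the 41 windows under distal regions (12.2%, exact 95% interval 4.08 to 26.2%), in 50 of 471 windows under other asynchronous regions (10.6%), in 4.76% of all 11587 lncRNA windows and in 3.78% of all 32817 windows. ATGCAAA was in 3 of 41 windows (7.32%, 1.54 to 19.9%), against 7.43% under other asynchronous regions, 5.35% of lncRNA windows and 4.63% of all windows. The 2 cores directly joined, as in the composite OCT4-SOX2 site, were in 0 of 41 windows. The exact 95% upper bound is 8.60% (7.32% by a limit of 3 counts) and holds for this joined string alone. The string was in none of the 32817 windows, so its absence under distal regions does not set them apart. Composite sites that differ from it in any base were not searched for, and no conclusion on such sites is drawn. The shares given for the cores describe the windows and were not tested. The 41 windows lay on 37 distal regions, and some share bases, as those of Gm32441 and Gm52389 do. The intervals treat all windows as separate. The sequences that follow hold a match, marked in capitals, printed as the reverse complement, AACAATG, where the site is on the other strand. The stretch near Gm32796 holds CATTGTT in each copy of a short direct repeat and lies between Opa1, a mitochondrial fusion gene, and Hes1, a Notch effector. That of Gm33388 lies between Gli2, a Hedgehog effector, and Inhbb, an activin subunit gene. Gm35035 lies beyond Dusp6, an ERK phosphatase gene, and 4833407H14Rik lies on the Smndc1 side of Dusp5, another ERK phosphatase gene. The positions are chr16:29972629-29972909 (plus), chr1:119305493-119305792 (plus), chr11:114611841-114611936 (minus), chr12:20815893-20816029 (minus), chr10:99460731-99460924 (minus) and chr19:53460372-53460671 (plus), in the order printed.
Gm32796: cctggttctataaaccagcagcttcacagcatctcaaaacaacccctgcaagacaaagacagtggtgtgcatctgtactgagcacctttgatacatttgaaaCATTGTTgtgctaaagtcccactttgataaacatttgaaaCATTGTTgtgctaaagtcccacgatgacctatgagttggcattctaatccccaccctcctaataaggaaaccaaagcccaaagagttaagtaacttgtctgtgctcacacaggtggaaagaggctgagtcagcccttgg
Gm33388: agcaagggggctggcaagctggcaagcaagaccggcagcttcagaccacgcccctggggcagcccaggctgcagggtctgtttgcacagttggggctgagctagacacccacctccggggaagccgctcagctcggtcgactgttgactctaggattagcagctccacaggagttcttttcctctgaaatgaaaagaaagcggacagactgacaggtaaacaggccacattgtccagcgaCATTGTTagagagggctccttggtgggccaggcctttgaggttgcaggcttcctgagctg
Gm31724: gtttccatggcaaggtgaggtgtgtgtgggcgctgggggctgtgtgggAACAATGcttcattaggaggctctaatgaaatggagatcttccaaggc
1700030C10Rik: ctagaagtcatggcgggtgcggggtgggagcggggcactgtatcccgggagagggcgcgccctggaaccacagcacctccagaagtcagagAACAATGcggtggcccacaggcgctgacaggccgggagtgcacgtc
Gm35035: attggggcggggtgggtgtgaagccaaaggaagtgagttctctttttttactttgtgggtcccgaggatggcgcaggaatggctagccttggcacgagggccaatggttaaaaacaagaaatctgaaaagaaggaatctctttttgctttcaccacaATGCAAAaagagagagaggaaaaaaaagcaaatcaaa
4833407H14Rik: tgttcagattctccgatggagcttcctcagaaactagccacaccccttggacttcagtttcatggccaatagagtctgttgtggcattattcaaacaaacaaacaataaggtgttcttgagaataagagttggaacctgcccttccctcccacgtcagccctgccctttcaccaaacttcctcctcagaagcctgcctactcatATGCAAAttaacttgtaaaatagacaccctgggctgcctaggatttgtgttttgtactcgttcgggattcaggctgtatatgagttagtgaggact

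The promoter of the lncRNA Gm41331, between 4933412E24Rik and Lratd2, is shown because the distal region on it was also bound in mitotic cells. The stretch is chr15:60141735-60141960 (plus strand), and capitals mark the 162 bases that belong to the mitotic region.
Gm41331: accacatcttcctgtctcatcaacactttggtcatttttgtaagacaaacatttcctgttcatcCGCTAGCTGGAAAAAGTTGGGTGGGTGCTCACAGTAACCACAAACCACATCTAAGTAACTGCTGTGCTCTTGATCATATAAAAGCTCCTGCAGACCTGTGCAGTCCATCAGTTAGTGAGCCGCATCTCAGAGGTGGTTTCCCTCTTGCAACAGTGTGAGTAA

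Distal SOX2 regions were less dense than regions in and near genes and denser than those further out. In eligible sequence they stood at 3.00 per Mb (95% Poisson interval 2.85 to 3.17), against 4.81 inside genes, 4.90 up to 50 kb outside and 1.43 (1.34 to 1.54) beyond 200 kb. The order was the same on the autosomes alone, with 4.99, 5.34, 3.55 and 1.61 per Mb. Within the distal stretch the density went from 3.39 per Mb at 50 to 75 kb over 3.12 at 75 to 100 kb and 2.91 at 100 to 150 kb to 2.56 (2.26 to 2.89) at 150 to 200 kb. The median distance to the nearest gene was 97.7 kb, with quartiles of 70.4 and 136 kb. At the limits, the nearest regions were 50.03 kb from Cbln4 inside and 49.96 kb from D16Ertd472e outside, and 199.98 kb from Gm826 inside and 200.002 kb from Pkia outside. With genes of every type as bounds in place of protein-coding genes, 537 regions were distal. Assembly gaps and mappability were not taken out of the lengths.

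**Figure D1:**
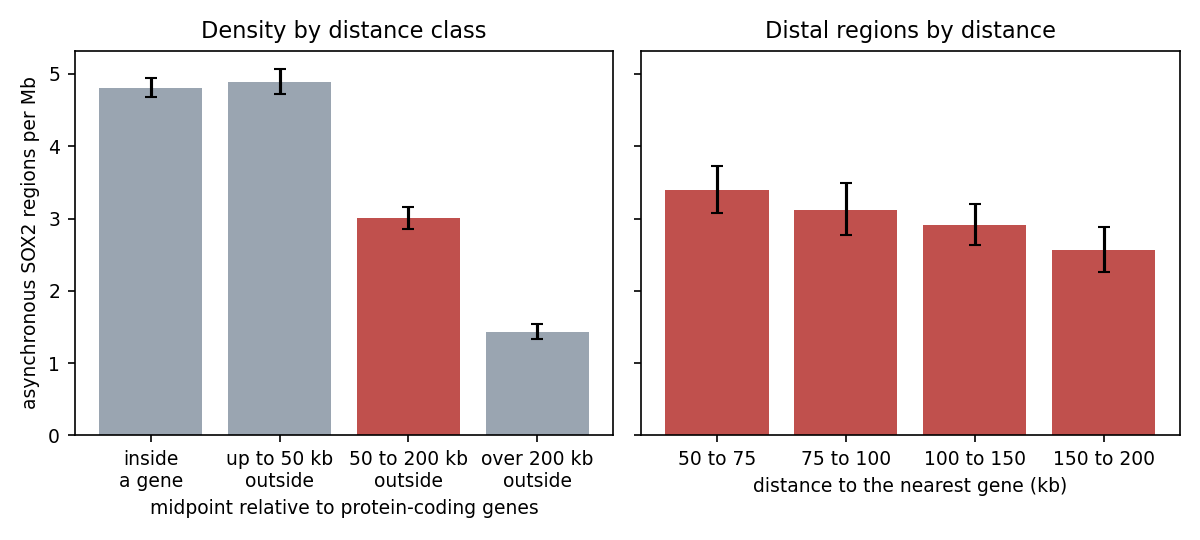
Asynchronous SOX2 regions per Mb of sequence (y axes), by distance class (left) and, for the distal regions, by distance to the nearest protein-coding gene in kb (right). Bars are densities, error bars 95% Poisson intervals of the count, and red marks the distal class, which stood at 3.00 per Mb between 4.90 nearer to genes and 1.43 further out.

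The distal regions differed little in width from the rest. Their median width was 296 bp (interquartile range 230 to 391 bp), against 288 bp (226 to 379 bp) for the other asynchronous regions. Wider than 500 bp were 154 distal regions (11.0%) and 8.41% of the others, and at the smallest width of the list, 183 bp, were 4.72% and 4.40%. Width is the only value the list gives besides position, and it is not a measure of binding strength. The 10 widest spanned 1076 to 820 bp, all above width percentile 99.6 of the asynchronous list. The widest, of 1076 bp, lay between the carbonic anhydrase gene Car2 and Gm9733. The next, of 980 bp, lay 118 kb from Gm11677 and 938 kb from Sox9, a regulator of cartilage and sex determination. Regions of 956 and 955 bp lay between Gap43 and Zbtb20 and between Ercc6l2 and Hsd17b3. One of 937 bp lay between Pced1b and Rpap3, and one of 929 bp between the cholesterol exporter gene Abca1 and the choline transporter gene Slc44a1. The others were 856 bp wide, 124 kb from the ephrin receptor gene Epha7 on the side of Map3k7, 823 bp wide between Arpp21 and Pdcd6ip, 821 bp wide between Spata18 and Usp46, and 820 bp wide, 194 kb from Dusp6 on the side of Csl. The last is the region whose end is printed above under Gm35035.

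The 1397 distal regions were spread over 840 gaps. Of 2981 gaps with eligible sequence, 28.2% held a distal region, and on the autosomes alone 819 of 2508 did (32.7%). Within the 840 gaps, 506 held 1 region, 191 held 2, and 143 held 3 or more, with 509 of the regions (36.4%). Gaps with a distal region had a median length of 362 kb and those without, 191 kb. By eligible length, 8.29% of the 820 gaps with up to 50 kb held one, and 42.1% of the 1164 gaps with more than 200 kb. Per Mb the order was the other way, with 4.34 regions in the former and 2.67 in the latter. These values by eligible length include the sparse X and Y chromosomes. Both flanking genes lay within 200 kb for 500 distal regions (35.8%), and the further gene was at a median distance of 279 kb.

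The gap between Pmp22, a myelin protein gene, and Gm29958 held the most distal regions, 7. They lay 54.5, 73.2, 112, 117, 296, 297 and 374 kb from Pmp22, and no other asynchronous region was in the gap. This gap is bounded by a predicted gene. Gaps with 6 distal regions were those of Rybp and Shq1, of Fam43a and Xxylt1, and of Sox2 and Atp11b. Rybp encodes a subunit of Polycomb repressive complex PRC1, and Shq1 a factor of H/ACA ribonucleoprotein assembly. Their gap, only 284 kb long, carried regions 91.02, 103, 133, 135, 176 and 212 kb from Rybp (chr6:100378063-100378695 being the widest, 633 bp). Xxylt1 encodes a xylosyltransferase that acts on Notch receptors, and its gap held regions at 68.0, 138, 139, 164, 219 and 233 kb from Fam43a.

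Gaps with 5 distal regions numbered 17, and the 8 described next are those among the 12 first in order of count, then density, then chromosome name. The remaining 9 hold as many, at 16.7 per Mb, the same density as the last 2 of those described. The gap of Sox1, a neural relative of Sox2, and Spaca7, a sperm acrosome gene, was the shortest and had the highest density of all gaps with at least 4 (68.0 per Mb over 73.5 kb of eligible sequence). Its regions lay in a pair 78.3 and 78.7 kb from Sox1 and a run at 100.3, 103 and 105 kb. Next in density came the gap of Prl2c3 and Prl2c2 (52.1 per Mb), prolactin-related genes expressed in placenta, with regions at 65.6, 80.3, 81.1, 126 and 128 kb from Prl2c3. These genes belong to a family of near-identical copies, and how uniquely reads could be placed there was not tested. Between Spring1, a regulator of SREBP, and Med13l, a subunit of the Mediator kinase module, regions at 173, 174, 182 and 183 kb from Spring1 formed the only run of 4 in which each region was within 10 kb of the next, over 10.7 kb in all, and the fifth lay at 239 kb. The gaps of Zc3h12a, an RNase gene, and Grik3, a kainate receptor gene, of Ramp3 and the adenylate cyclase gene Adcy1, and of the chemokine receptor gene Ackr3 and Cops8 also held 5. Also with 5 were those of Lyplal1 and Tgfb2, a TGF-beta ligand gene, and of Aldh8a1 and the kinase gene Sgk1. In the last, 4 of the 5 regions were nearest to Sgk1, at 180, 136, 55.2 and 52.8 kb, the widest being 737 bp wide.

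Short gaps with 4 distal regions were also among the densest. Between Sox13, a further SOX family gene, and the splicing protein gene Snrpe, regions lay in pairs at 68.2 and 69.1 kb and at 104 and 106 kb from Sox13 (50.4 per Mb). The gap of the kinase gene Map4k3 and Tmem178 had 34.5 per Mb, that of Dlx2 and Itga6 28.5 per Mb and that of Tmem132e and the chaperonin gene Cct6b 24.2 per Mb. In the gap of Dlx2 and Itga6, regions lay 83.0, 109, 158 and 172 kb from Dlx2, the last at the start of Platr26 shown above.

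**Figure D2:**
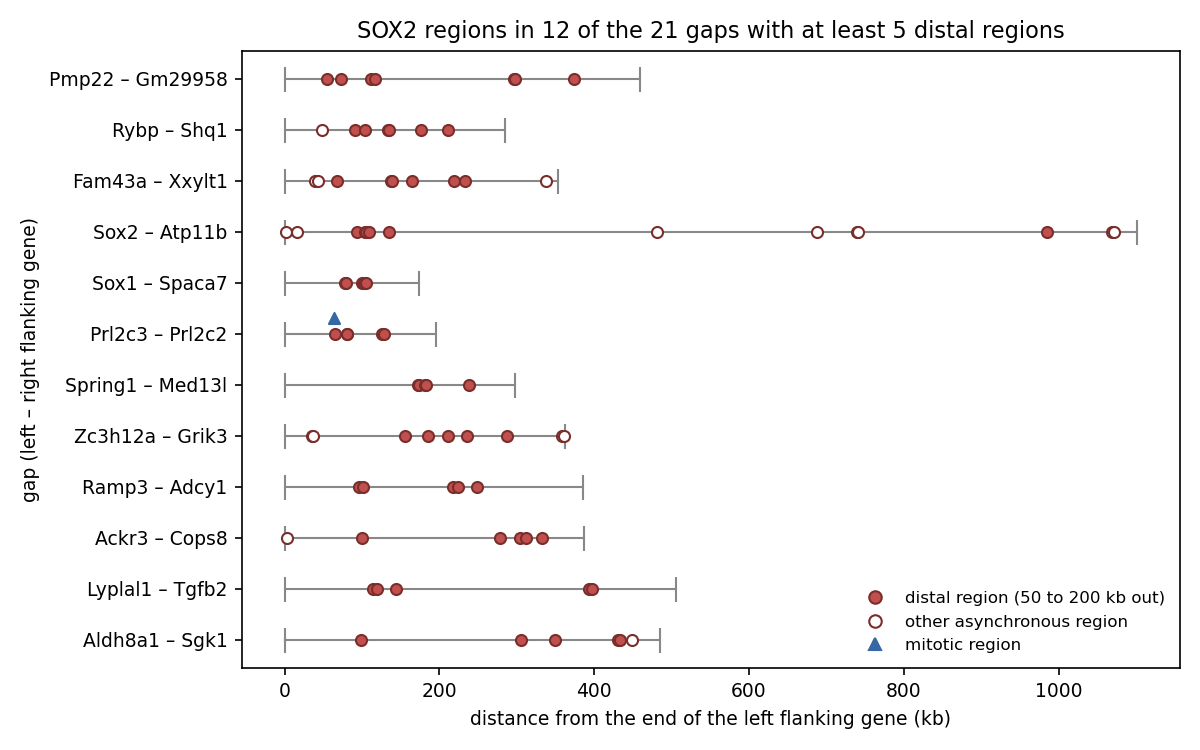
Positions of SOX2 regions in 12 of the 21 gaps with at least 5 distal regions (9 more hold 5 and are not drawn), as distance in kb from the end of the left flanking gene (x axis), with grey bars at the gene ends. Red circles are distal regions, open circles other asynchronous regions, and the blue triangle is the mitotic region in the gap of Prl2c3 and Prl2c2. The gap beside Sox2 is the longest of the 12 and the one beside Sox1 the shortest.

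Sox2 itself had distal regions on both sides. The gap towards Atp11b, a phospholipid flippase gene, is 1102 kb long and contains, as background, the distal control region that drives Sox2 in embryonic stem cells. Of its 14 asynchronous regions, 6 were distal, at 92.9, 104, 106, 109 and 135 kb from Sox2 and, at the other end, 117 kb from Atp11b. The middle 3 of the Sox2 group formed a run of 5.25 kb (chr3:34756408-34761657), and the widest of them was 512 bp. Towards Dnajc19, a further 2 distal regions lay 141 and 168 kb from Sox2, with widths of 184 and 183 bp, at the lower end of the list. No mitotic region lay in the gap towards Atp11b.

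Close runs were the exception among distal regions. Another distal region lay within 10 kb of 195 of them (13.96%), and within 1 kb of 34. Counting any asynchronous region, 14.9% of distal regions and 18.1% of the others had a neighbour within 10 kb, and the median distance to the nearest region was 55.9 and 49.0 kb. Runs of 3 or more, each within 10 kb of the next, numbered 6. Besides those near Med13l, Sox1 and Sox2, they lay between Sestd1 and Zfp385b, between Dchs2 and the Wnt antagonist gene Sfrp2, and between Rassf10 and the clock gene Arntl.

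Genes of the pluripotency network often flanked a gap with distal regions. Of 4753 protein-coding genes that flanked a gap with eligible sequence, 32.8% had a distal region there, with a median of 0 regions per gene. Of the 36 pluripotency genes, 23 flanked such a gap and 14 of these (60.9%) had a distal region in it, with a median of 1. This share was not particular to them. It was 62.5% for signalling, 61.9% for neuroectoderm, 60.0% for trophectoderm and 53.8% for mesendoderm genes, described below. It was also above 32.8% for axon guidance and adhesion (48.5%), fibroblast (44.4%) and liver genes (50% of 2). Olfactory receptor (3.33%), vomeronasal receptor (1.33%), defensin (20%) and housekeeping genes (0% of 2) stood below. The share of gaps with a distal region rises with eligible length, as given above, and these shares are not corrected for it. The gaps of the pluripotency genes held 45 distal regions, 7.69 per Mb (5.61 to 10.3). The density was 3.00 over all gaps and 3.55 on the autosomes. Of the 45, 34 had the listed gene as their nearest gene. Sall1, a zinc finger factor, had 7 in its 2 gaps: at 73.8, 136 and 139 kb on the side of Cyld, and at 113, 123, 137 and 1123 kb on the side of Tox3. Myc, a growth regulator, had 5, at 57.5 kb on the side of A1bg and at 103, 116, 172 and 1672 kb on the side of Gsdmc. Of these, 3 lay inside the lncRNA gene Pvt1. Mycn had 4, at 148, 132 and 116 kb on the side of Cyria and at 126 kb on the side of Ddx1. Klf5 had 4 in the gap it shares with Klf12, of which those at 144 and 197 kb were nearest to Klf5. Jarid2 and Nr5a2 had 3 each. Esrrb, Tfcp2l1, Zfp42, Tet2, Tcl1, Dppa2, Dppa4, Nr0b1 and Spry4 flanked eligible sequence and had none. This sequence was 300 kb for Tet2, 131, 122 and 114 kb for Tcl1, Dppa4 and Zfp42, and 57.1 kb or less for the others. At the density of all gaps, stretches as short as the last would seldom hold a region. The lists and the regions were chosen with earlier results of these data known, so these counts are descriptions. With genes of every type as bounds, which breaks the gaps at noncoding genes, 2 regions distal by that rule lay in gaps flanked by a pluripotency gene.

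Other SOX genes stood beside distal regions as well. Of 19 SOX family genes, Sox2 included, 11 flanked eligible sequence and 9 of these had a distal region, with a median of 4 per gene and 8.82 per Mb (6.18 to 12.2). Besides Sox2, Sox1 and Sox13, they included Sox11, with 3 regions 180 to 194 kb from it and another 688 kb away, nearest to Cmpk2. Sox6 had regions at 55.3, 61.8 and 87.7 kb and another beside Insc, Sox9 had 4, and Sox4 and Sox14 had 3 each. Sox3 and Sox5 had none. Of 29 KLF and SP genes, zinc finger factors of the same protein fold, 12 flanked eligible sequence and 11 had a distal region (7.61 per Mb, 4.88 to 11.3). Klf6 had 7, of which 5 were nearest to it, at 57.4, 132 and 164 kb on the side of Akr1e1 and at 109.8 and 169.7 kb on the side of Pitrm1; the first of these was 796 bp wide. Klf12 had 4, Klf14 had 3, and the 3 between Sp4 and Sp8 were nearest to Sp8. All 6 IRX homeobox genes and all 3 SALL genes that flanked eligible sequence had one, but these genes share gaps or are few: the IRX gaps held 8 regions and those of the SALL genes 11. These families are not separate from the pluripotency list. Sox2 with its 8 regions, Klf4, Klf5, Sall1 and Sall4 are counted in both.

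Genes of other early lineages and of signalling pathways had fewer distal regions per Mb than the pluripotency genes, with overlapping intervals. Of 21 neuroectoderm transcription factor genes that flanked eligible sequence, 13 had a distal region (4.93 per Mb, 3.39 to 6.92). Meis1, a homeobox gene, had 5, but 4 of these were nearest to Spred2 at the far end of the gap, and Pou3f1 had 4, of which 1, at 172 kb, was nearest to it. Of 10 trophectoderm genes 6 had one (6.48 per Mb, 3.55 to 10.9), led by Tfap2c with 4 in the gap it shares with Bmp7, and by Eomes and Tfap2a with 3 each. Of 16 signalling genes 10 had one (4.90 per Mb, 2.91 to 7.75). Among them, Ctnnb1, which encodes beta-catenin, and the Notch ligand gene Dll1 had 3 each, and Bmp4, Dusp6, Fgfr2 and Spry2 had 2 each. The interval for signalling genes included the 3.00 per Mb of all gaps. Mesendoderm genes (7 of 13, 3.77 per Mb, 1.95 to 6.58, which includes it) were led by Eomes, with regions at 71.8, 73.1 and 88.1 kb. Forkhead genes (9 of 23, 4.45 per Mb, 2.72 to 6.87, which includes it) were led by Foxp1, whose 5 regions were all nearest to Gm765 and 398 to 489 kb from Foxp1, and by Foxn2 with 4. The POU (5 of 8, 3.87 per Mb), GATA (2 of 4, 3.97 per Mb) and TBX genes (4 of 8, 2.65 per Mb) also had intervals that included the value of all gaps. That value counts the sparse X and Y chromosomes, and on the autosomes alone the density was 3.55 per Mb. The neuroectoderm interval included this higher value, and the trophectoderm interval began at about it. The lists were not recomputed on the autosomes alone.

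Olfactory and vomeronasal receptor genes and axon guidance genes stood below the density of all gaps, with intervals that excluded it, and the counts for other tissues were small. Fibroblast genes (4 of 9, 2.98 per Mb) were led by Pdgfra, whose 3 regions were all nearest to Kit. Liver genes had 3 distal regions, in the gap of Cps1 and Erbb4 (5 per Mb, 1.03 to 14.6), and 2 of 18 flanked eligible sequence. Housekeeping genes, of which 2 flanked a total of 0.156 Mb, had none. Axon guidance and adhesion genes had 24 distal regions in 13.5 Mb (1.78 per Mb, 1.14 to 2.64), and 16 of 33 had one, led by Epha4 and Epha7 with 3 each. Their gaps are long, and gaps with more than 200 kb of eligible sequence held 2.67 per Mb in all. Olfactory receptor genes had 1 distal region, beside Olfr987, in 2.17 Mb (0.462 per Mb, 0.0117 to 2.57), and vomeronasal receptor genes 1, beside Vmn2r120, in 3.64 Mb (0.275 per Mb, 0.00696 to 1.53). Defensin genes had 1, beside Defb7, in 0.603 Mb (1.66 per Mb, 0.0420 to 9.24, which includes the value of all gaps). Such families hold many near-identical copies, and how far reads could be placed there was not tested. Of the olfactory receptor sequence, 600 kb flanked Olfr1324 alone. The receptor lists were not split by chromosome, and the X chromosome as a whole had only 0.668 per Mb. Whether the olfactory interval would exclude the density of all gaps on the autosomes alone was therefore not tested.

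**Figure D3:**
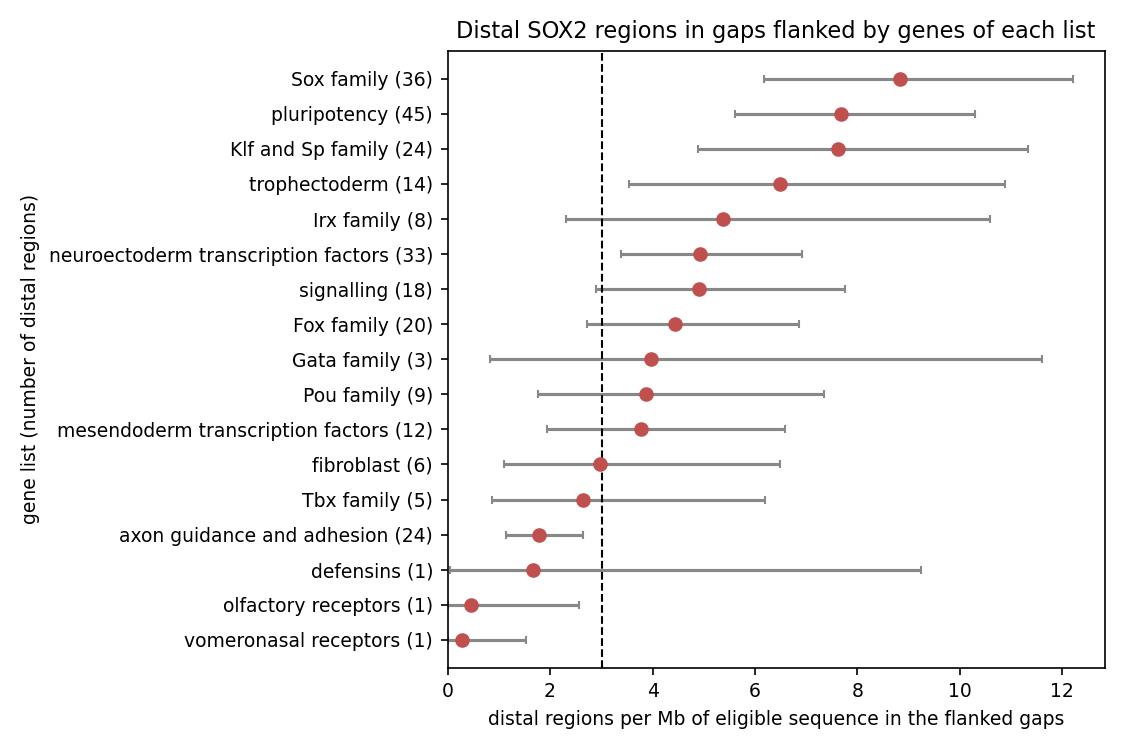
Distal SOX2 regions per Mb of eligible sequence (x axis) in the gaps flanked by genes of each list with at least 4 flanking genes (y axis, with the number of distal regions). Points are densities, bars 95% Poisson intervals, and the dashed line is 3.00 per Mb, the density over all gaps with X and Y included (3.55 on the autosomes). The SOX, pluripotency and KLF and SP lists, which share genes, lay highest and the receptor families lowest.

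The distal regions lay inside lncRNA genes more often than the length of these genes in eligible sequence, but not inside other noncoding genes. The midpoint was inside an annotated lncRNA gene for 290 of them (20.8%, exact 95% interval 18.7 to 23.0%), while lncRNA genes took up 12.3% of eligible sequence. Pseudogenes held 14 (1.00%) and took up 1.67%, and other noncoding genes held 2 (0.143%) and took up 0.470%. The lncRNA genes with most were Gm31615, beside Foxn2, with 4, and 2610307P16Rik, beside Sox4, A330033J07Rik, beside Id4, Gm35599, Gm36743, LOC108167736 and Pvt1 with 3 each. Of 18 Platr genes, 4 had a distal region within 5 kb, as did 3.06% of all 12727 lncRNA genes wherever they lie. These 4 were Platr22, Platr26, Platr11, which held 2 in the gap next to Eomes, and Platr6, in the gap next to Sgk1. Only 300 distal regions (21.5%) were more than 50 kb from every one of 49943 annotated genes of any type, and the median distance to such a gene was 16.1 kb.

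In the imprinted gap of Rtl1 and Dio3, a thyroid hormone deiodinase gene, 2 distal regions overlapped microRNA hairpins, the only ones of the 1397 to do so. A region of 300 bp, 120 kb from Rtl1, covered all 79 bases of the Mir300 hairpin (chr12:109724313-109724391), and a region of 184 bp, 130 kb from Rtl1, covered 64 of the 66 bases of Mir668 (chr12:109734732-109734797). The latter also overlapped the promoter window of the lncRNA Mirg. Of 1005 hairpins, 34 lay within 10 kb of a distal region, and 27 of these were in this gap, where hairpins are crowded (42 in all). The share of other asynchronous regions that overlap a hairpin is not given here, so the overlaps are not shown to be particular to distal regions. The mature sequences are from RefSeq, with the seed (bases 2 to 8) in capitals, and no seed is shared among them.
mmu-miR-300-5p: uUGAAGAGagguuauccuuugu
mmu-miR-300-3p: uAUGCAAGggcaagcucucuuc
mmu-miR-668-5p: gUAAGUGUgccucgggugagcaug
mmu-miR-668-3p: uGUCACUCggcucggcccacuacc

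Few mitotic regions fell in the same stretch. By the same rule 6 of the 84 mitotic regions (7.14%, exact 95% interval 2.67 to 14.9%) were distal, against 13.5% of the asynchronous ones; the mitotic list carries a looser q-value tag, and with 1 list per condition the difference was not tested. Mitotic regions of any kind lay in 12 of the 840 gaps with a distal region (1.43%) and in 6 of the 2141 eligible gaps without, where 0.604% of all eligible gaps held one. Gaps with a distal region were longer, so that these shares do not compare like stretches.

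Of the 1397 distal regions, 2 overlapped a mitotic region (0.143%, 0.0173 to 0.516%), beside 0.0869% of all asynchronous regions. The first was the region of 321 bp at chr15:60141735-60142055, on the promoter of Gm41331 printed above, 125 kb from 4933412E24Rik. It contained the whole mitotic region of 173 bp. The second, of 485 bp at chr13:3341417-3341901, lay 196 kb before Gdi2, the first protein-coding gene of chromosome 13, and contained the whole mitotic region of 117 bp.

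The remaining mitotic regions of the distal class lay near a distal region or far from any. In the gap of Prl2c3 and Prl2c2, a mitotic region of 106 bp lay 1.93 kb from the nearest distal region, between midpoints. The one before Myc, of 105 bp, lay 4.31 kb from a distal region, and the one before Arid1b, a subunit gene of the BAF remodelling complex, 17.0 kb from the nearest of the 2 in its gap. The mitotic region between Gm9222 and the zinc finger gene Zfp996 was in a gap without a distal region, 2210 kb from the nearest. Mitotic regions of other classes in gaps with distal regions were 7.96 kb (near Etaa1), 17.4 kb (near Arl5b), 58.8 kb (near Sall1), 63.2 kb (near Raet1d), 121 kb (near Grhl2), 326 kb (between Mki67 and Mgmt) and 353 kb (between Kazn and Prdm2) from the nearest distal region.

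**Figure D4:**
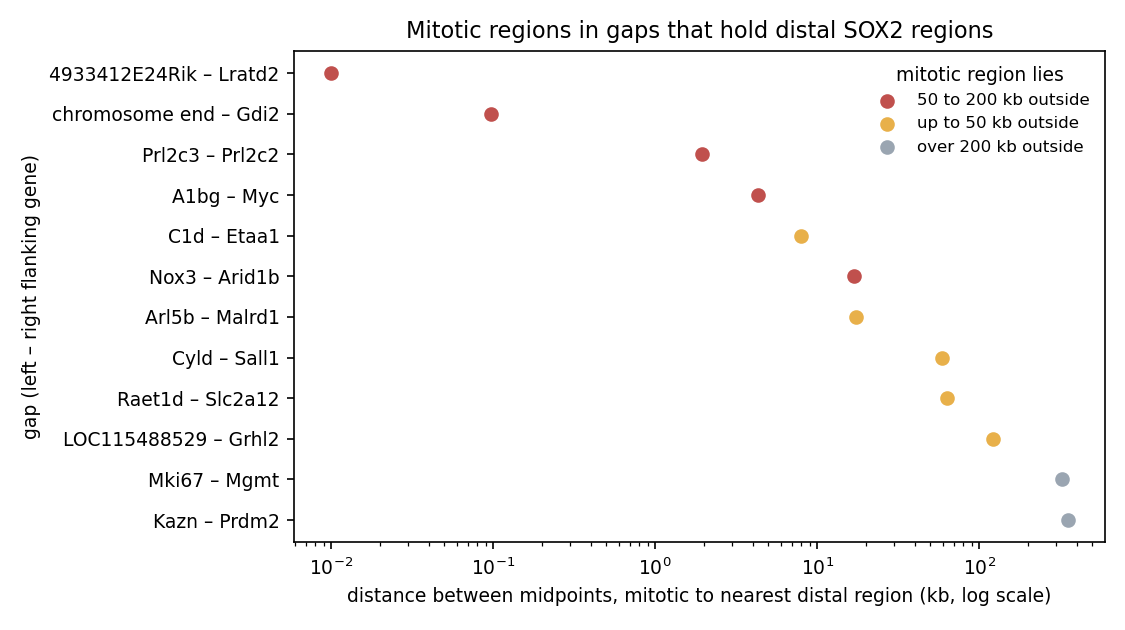
Distance in kb between the midpoints of each mitotic region in a gap that holds distal regions and the nearest distal region (x axis, log scale), by gap (y axis). Point colours give the place of the mitotic region relative to genes. The regions in the gaps of 4933412E24Rik and Lratd2 and before Gdi2 overlap a distal region and lie furthest left, and the regions between Mki67 and Mgmt and between Kazn and Prdm2 lie furthest right, at 326 and 353 kb.

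The distal regions were found on every chromosome. On the autosomes the density lay between 2.21 per Mb of eligible sequence (chromosome 14) and 4.72 (chromosome 11), and the share of a chromosome's asynchronous regions that were distal was between 8.23% (chromosome 7) and 19.0% (chromosome 13). Of the sex chromosomes, X had 27 distal regions in 40.4 Mb (0.668 per Mb) and the Y chromosome 1 in 39.4 Mb (0.0254 per Mb). Copies per cell and mappability are not corrected for.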

How the data were processed

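SOX2 ChIP and input DNA of asynchronous and mitotic E14 cells were sequenced in 12 libraries, 3 per group. Bowtie2 2.2.1, MACS2 (version not given in the sources used here) and the mouse build mm10 are named per the submitters' processing notes. By the deposited names, peaks were called on 3 pooled replicates against input, with q-value tags read as 0.01 (asynchronous) and 0.05 (mitotic), and blacklisted regions were removed. What the authors deposited is a start and an end for each peak (other unit: bp), without score, q-value or reads.

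Starts were converted to count from 1, and 10532 asynchronous entries merged by coordinates to 10351 regions. Gaps and distances came from 21887 protein-coding gene spans on 21 chromosomes (RefSeq, GRCm38.p6), with Python 3.11.15, numpy 2.4.6 and pandas 2.3.3. The distance code was tested on simulated data. Eligible lengths run between the outermost annotated genes or regions of a chromosome. Intervals are exact binomial or Poisson at 95%. No tests between conditions were possible. Strand was read from promoter windows. Genome sequence was not used here, so the planned motif search covers promoter windows alone.

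The named genes flank the 12 fullest gaps, the 8 densest with at least 4 distal regions, the gaps of the 10 widest, gaps with shared or distal mitotic regions, and Sox2, plus up to 5 genes per list. The regions and lists were chosen with earlier results of these data known. The Platr genes, the hairpins, the lncRNA genes, listed genes without a region, genes at the distance limits, genes of runs of 3, the remaining gaps with mitotic regions and the longest empty gaps were picked with their values known. All 1864 listed genes were matched; results for some are not reported here. Alternatives used region edges, all annotated genes, no predicted genes, unmerged entries, wider regions, limits of 75 or 150 kb, other overlap rules and, chosen after the data were seen, autosomes only.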

Additional observations from a re-analysis of the deposited data

How the results depend on the processing

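Of 90 recomputed values over 12 results, 64 stayed within 1.5 times (counts) or within the 95% interval (share, median width, density), among them all values with distances from region edges and all counts with unmerged entries, without predicted genes and on autosomes. The annotation decides most. With all annotated genes as bounds, 537 regions were distal (5.19%), of which 300 were among the 1397 described here. They lay in 426 gaps, with at most 4 per gap and 61 within 10 kb of another. Their median width was 305 bp and their density 1.39 per Mb. In that setting 1 mitotic region was distal, and 3 lay in such gaps. Gaps flanked by a pluripotency gene then held 2 distal regions, and those of an olfactory receptor 0. By construction, regions wider than the median gave fewer: 735 distal (14.2%), a median of 384 bp, 532 gaps, 62 within 10 kb of another, 1.58 per Mb, 3 distal mitotic regions and 4 in the gaps. A lower limit of 75 kb gave 9.36%, 127 within 10 kb and 0 beside olfactory receptors, and an upper limit of 150 kb gave 11.0% and 3 distal mitotic regions. Density was 3.28 per Mb without predicted genes, where the fullest gap held 6, and 3.55 on autosomes. The 2 overlaps with mitotic regions stayed 2 under both other rules. No paired analysis was possible because each list pools its replicates, so that no replicate could be left out either.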

Other observations

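Where the strand of the nearest gene was known (1079 of 1397 distal regions), the gene's 5′ end faced the region in 594 cases (55.1%, exact 95% interval 52.03 to 58.0%), while 51.9% of eligible sequence was on such a side. In density this was 3.22 per Mb (2.96 to 3.49) on the 5′ side and 2.84 per Mb (2.59 to 3.10) on the 3′ side. Regions in a gap are not independent of each other, and the difference was not tested.

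Long gaps were often empty. Of 886 gaps with nearly all of the largest possible eligible sequence (300 kb, to within 1 kb), 508 (57.3%) held no distal region and 291 held no asynchronous region at all. These counts include the X and Y chromosomes, which had 273 and 200 gaps with any eligible sequence and only 0.668 and 0.0254 distal regions per Mb. They were not recomputed on the autosomes alone. The longest without a distal region lay between Tenm3, a teneurin gene, and Aga (3989 kb, 3 asynchronous regions, all further out), between Lrrc4c, a synaptic adhesion gene, and Iftap (3929 kb, 1 region), and between Dsel and Cntnap5a (3820 kb, 6 regions). The gaps on both sides of the protocadherin gene Pcdh7 were also without one. Some long gaps include sequence near chromosome starts, and assembly gaps were not taken out.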
